A study of Mus musculus with 12 samples.

Results

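Genes of DNA replication and of mitosis were compared between mouse mammary tumours grown from Cosmc-silenced and from parental 4T1 cells. The set held 49 genes, given as a list of symbols and matched to the rows of the deposited count table through their gene identifiers, of 57186 genes in the table. All 49 were matched, and all 49 passed the filter on low counts. They comprised 17 genes of DNA replication, 29 of mitosis and 3 transcription factors of the cell cycle. In 6 tumours (Tn) Cosmc, which is C1galt1c1, had been silenced by CRISPR/Cas9 in the injected cells, so that O-linked glycans stay at the truncated Tn antigen. In the other 6 tumours (WT) the cells were parental. Both groups come from 4T1, an established mammary carcinoma line of the mouse that models triple-negative disease, and the labels give breast as the tissue and a single batch. Whether the silenced cells were 1 clone or a pool, and the strain and age of the mice, are not given in the sources used here. Total tumour tissue was sequenced, so each value sums tumour cells and cells of the host, and fewer dividing cells and less RNA of these genes per cell cannot be told apart.

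A cell prepares to copy its DNA in G1, when Cdc6 and Cdt1 load the MCM helicase onto origins of replication, and starts copying in S phase under cyclin E and the E2F factors. Mitotic genes are switched on later, in G2, by B-Myb (Mybl2) and FoxM1, and drive chromosome segregation and then cytokinesis, the physical splitting of the cell. Their mRNA is largely restricted to cycling cells, and Ki-67, the product of Mki67, is the usual marker of proliferating cells in breast tumours.

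The promoters of the genes that the results turn on are printed first, since replication and mitosis genes are known to carry different control elements. Each is read from GRCm39, from 250 bases before to 50 bases after the transcription start, 5′ to 3′ on the strand of the gene, at the start of the canonical transcript of GENCODE mouse release 39. Capitals mark matches, on either strand, to the CHR element of mitotic genes (TTTGAA or TTCGAA), to the CCAAT box (CCAAT) and to the E2F site (TTTGGCGC, TTTGCCGC, TTTCGCGC or TTTCCCGC). Shown are the 4 mitosis and the 2 replication genes with the smallest p in Tn against WT, and the mitosis gene (Ndc80) and the replication gene (Pola1) with the largest p. The windows are chr3:27207980-27208279 (minus) for Ect2, chr9:22300452-22300751 (minus) for Anln, chr7:79943937-79944236 (plus) for Prc1, chr7:135318250-135318549 (minus) for Mki67, chr11:98798377-98798676 (plus) for Cdc6, chr16:15455215-15455514 (minus) for Mcm4, chr17:71833810-71834109 (minus) for Ndc80 and chrX:92675764-92676063 (minus) for Pola1. These starts lie upstream of the gene ends in the deposited table by 209 bases for Mki67, 52 for Pola1, 17 for Anln, 11 for Prc1, 7 for Ndc80 and 2 for Ect2, and match them for Cdc6 and Mcm4.
Ect2: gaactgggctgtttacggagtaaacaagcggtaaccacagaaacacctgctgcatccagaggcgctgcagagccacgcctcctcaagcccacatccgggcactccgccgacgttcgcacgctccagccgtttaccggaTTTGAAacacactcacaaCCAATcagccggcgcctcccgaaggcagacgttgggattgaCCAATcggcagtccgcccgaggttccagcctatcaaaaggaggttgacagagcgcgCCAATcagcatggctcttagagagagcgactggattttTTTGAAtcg
Anln: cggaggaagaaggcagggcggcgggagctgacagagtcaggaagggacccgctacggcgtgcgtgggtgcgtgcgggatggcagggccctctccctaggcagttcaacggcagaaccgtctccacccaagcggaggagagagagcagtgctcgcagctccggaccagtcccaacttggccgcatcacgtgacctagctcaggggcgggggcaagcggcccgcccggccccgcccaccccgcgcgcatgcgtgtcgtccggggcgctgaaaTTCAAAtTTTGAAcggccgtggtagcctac
Prc1: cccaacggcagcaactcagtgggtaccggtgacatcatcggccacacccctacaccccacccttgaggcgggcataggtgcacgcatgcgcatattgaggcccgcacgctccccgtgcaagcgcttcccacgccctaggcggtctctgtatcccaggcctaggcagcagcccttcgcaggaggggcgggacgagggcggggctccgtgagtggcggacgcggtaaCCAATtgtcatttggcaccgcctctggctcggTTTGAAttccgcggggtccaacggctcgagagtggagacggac
Mki67: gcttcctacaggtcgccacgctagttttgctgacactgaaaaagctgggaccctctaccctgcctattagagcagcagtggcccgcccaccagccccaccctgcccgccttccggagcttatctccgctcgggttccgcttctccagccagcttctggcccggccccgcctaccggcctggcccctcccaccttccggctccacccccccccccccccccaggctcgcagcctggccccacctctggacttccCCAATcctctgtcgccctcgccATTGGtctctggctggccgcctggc
Cdc6: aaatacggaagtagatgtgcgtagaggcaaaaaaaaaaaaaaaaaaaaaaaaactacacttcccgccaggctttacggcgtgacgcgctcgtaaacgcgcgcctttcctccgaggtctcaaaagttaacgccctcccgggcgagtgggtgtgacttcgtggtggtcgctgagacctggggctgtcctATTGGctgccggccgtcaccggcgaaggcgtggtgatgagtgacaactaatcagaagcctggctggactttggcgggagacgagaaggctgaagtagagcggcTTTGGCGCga
Mcm4: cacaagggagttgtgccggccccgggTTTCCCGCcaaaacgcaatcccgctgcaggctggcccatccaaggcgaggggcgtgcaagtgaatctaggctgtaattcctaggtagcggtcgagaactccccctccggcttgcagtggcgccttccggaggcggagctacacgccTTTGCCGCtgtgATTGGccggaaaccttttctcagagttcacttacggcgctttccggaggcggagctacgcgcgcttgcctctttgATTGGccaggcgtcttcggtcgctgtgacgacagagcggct
Ndc80: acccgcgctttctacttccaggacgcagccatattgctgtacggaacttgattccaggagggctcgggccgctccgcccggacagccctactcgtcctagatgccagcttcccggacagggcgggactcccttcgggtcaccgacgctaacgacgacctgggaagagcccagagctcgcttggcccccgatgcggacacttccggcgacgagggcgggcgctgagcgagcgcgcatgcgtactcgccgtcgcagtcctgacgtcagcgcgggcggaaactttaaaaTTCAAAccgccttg
Pola1: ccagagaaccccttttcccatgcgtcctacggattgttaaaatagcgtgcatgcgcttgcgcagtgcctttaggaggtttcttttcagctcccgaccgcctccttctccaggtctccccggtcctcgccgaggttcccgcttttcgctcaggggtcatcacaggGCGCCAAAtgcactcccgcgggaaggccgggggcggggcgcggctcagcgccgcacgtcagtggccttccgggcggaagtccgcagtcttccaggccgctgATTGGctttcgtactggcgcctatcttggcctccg

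A CHR match was found in 18 of 29 mitosis promoters (62.1%) and in 2 of 17 replication promoters (11.8%), against 18.8% of 21770 promoters of protein-coding genes. The E2F words were found in 1 of 29 mitosis promoters (3.45%) and in 7 of 17 replication promoters (41.2%), against 2.82% of all promoters. A CCAAT box was present in 69.0% of mitosis and 58.8% of replication promoters, against 39.9% of all. Of the promoters shown, Ect2 held 2 CHR matches and 3 CCAAT boxes, Anln 2 CHR matches that lie 1 base apart, and Mcm4 2 E2F sites and 2 CCAAT boxes. Ndc80 held a CHR match as well. Among mitosis genes, 12 of the 17 that fell in Tn tumours and 6 of the 12 that did not pass the test held a CHR match, counts given without a test. A match describes letters in this window and does not show binding. Only these exact words were searched, so a promoter without a match may still hold a variant of the element.

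**Figure D1:**
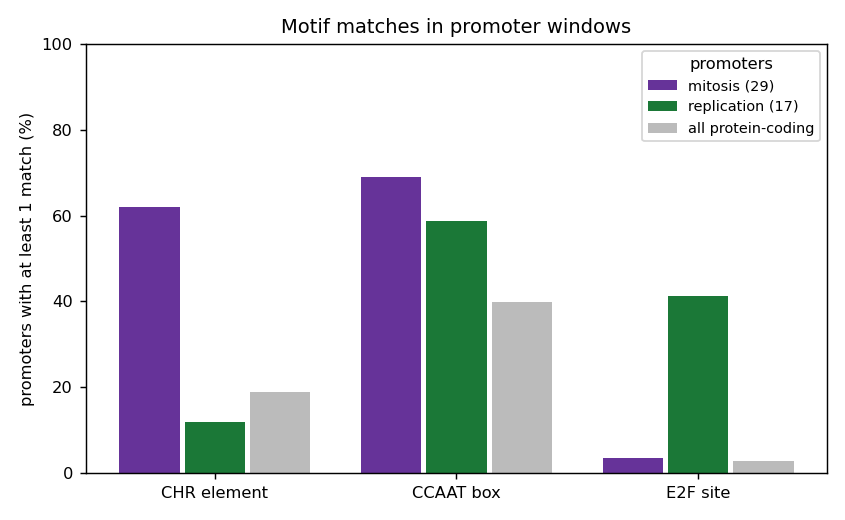
Share of promoter windows (vertical axis, %) with at least 1 match to the CHR element, the CCAAT box or the E2F site, for 29 mitosis genes, 17 replication genes and all 21770 protein-coding genes. CHR matches are most frequent in mitosis promoters (62.1%) and matches to the E2F words in replication promoters (41.2%).

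C1galt1c1 itself (ENSMUSG00000048970, GRCm39 chromosome X, 37719662 to 37723964, minus strand), the silenced gene, was at 11.3 ± 0.775 CPM in Tn and 19.6 ± 3.05 CPM in WT tumours (SD, n = 6 each), where CPM are counts per 1000000 after TMM scaling. The groups did not overlap (log2 fold change -0.80 ± 0.11, SE, edgeR adjusted p = 0.000201). Totals ran from 113575859 to 156880766 counts per tumour, and the lowest count of any of the 49 genes in any tumour was 950. Of 19255 genes tested, 17.4% fell and 19.5% rose in Tn tumours, together 36.8% (quasi-likelihood test of edgeR, p under 0.05 after Benjamini-Hochberg adjustment). The median log2 fold change of all tested genes, Tn over WT, was 0.01. Upper-quartile scaling moved this median to -0.04 and RLE scaling to 0.01.

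Cell cycle genes were lower in Tn tumours, modestly and unevenly. Of the 49 genes, 25 fell (51.0%, against the 17.4% of all tested genes that fell), 0 rose and 24 did not pass the test. The log2 fold change was negative in 43 of 49 and had a median of -0.32. Only Ect2 and Anln fell by 2-fold or more. In 12 genes, all of mitosis, every Tn tumour lay below every WT tumour, which held for 8.35% of all tested genes. Tn tumours 4 and 6 and WT tumour 6 hold the highest B cell, keratinocyte and adipocyte levels of the 12 tumours. Without these 3 libraries 16 of the 49 genes fell, all of them among the 25, and Ttk rose. Of all genes tested in the other 9 tumours, 14.2% fell.

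**Figure D2:**
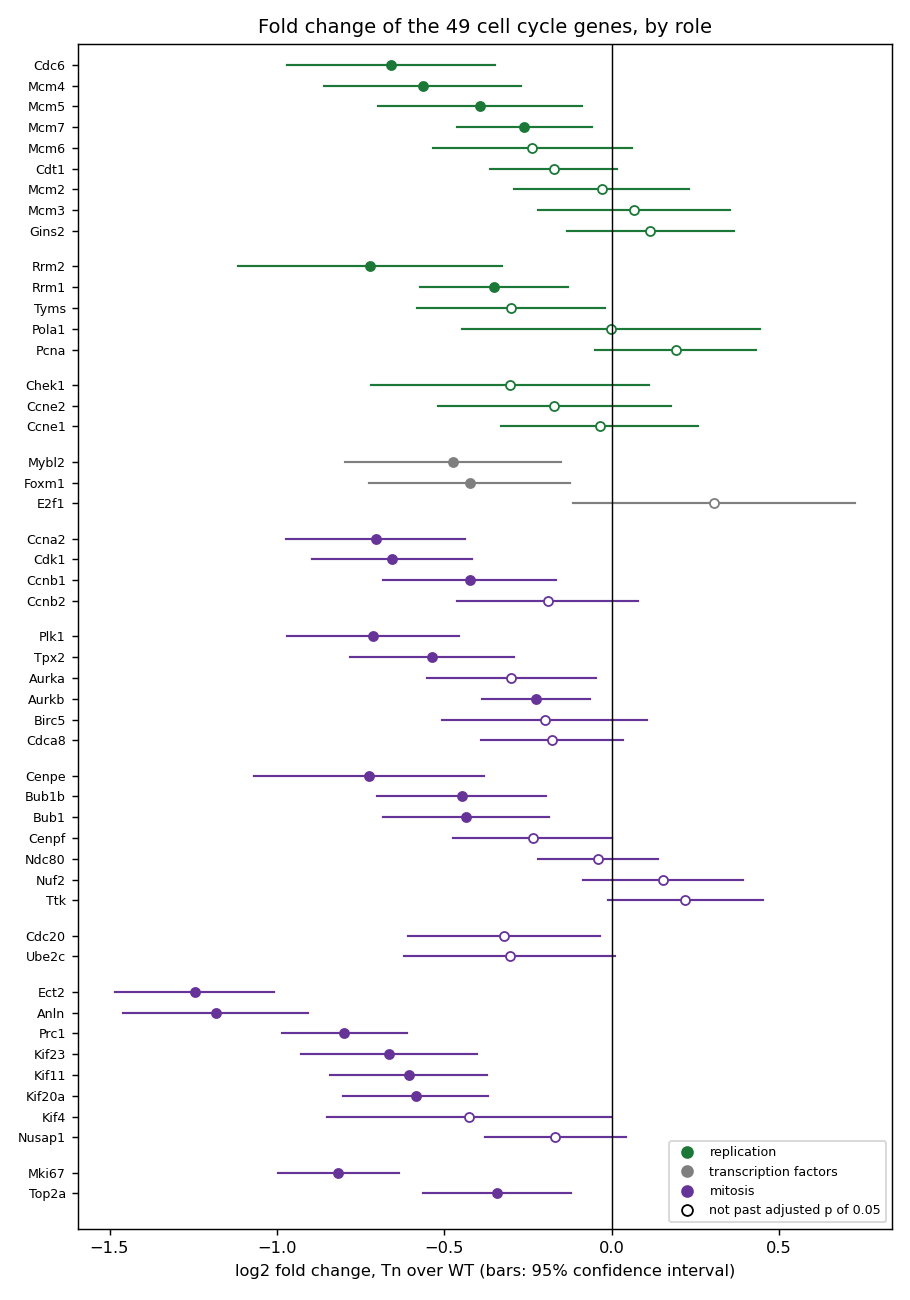
Log2 fold change, Tn over WT, of the 49 genes (horizontal axis) with the 95% confidence interval, grouped by role and sorted within each role. Filled points passed an adjusted p of 0.05 and all 25 of them lie below 0, with Ect2 and Anln farthest left.

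Of the 49 genes, Ect2 and Anln, both of cytokinesis, had the lowest Tn levels relative to WT. Ect2 (ENSMUSG00000027699, GRCm39 chromosome 3, 27151371 to 27208027, minus strand), the exchange factor that activates RhoA at the cleavage furrow, had 36.4, 46.6 and 62.2 CPM as lowest, median and highest value in Tn tumours, against 96.5, 114 and 120.4 CPM in WT tumours. On the log2 scale it changed by -1.25 ± 0.11 (SE; edgeR adjusted p = 1.91e-05), or 42.2% of WT. Anln (ENSMUSG00000036777, GRCm39 chromosome 9, 22243308 to 22300484, minus strand), the actin-binding anillin of the contractile ring, had 99.6, 147 and 195 CPM in Tn and 314, 343 and 366 CPM in WT tumours, with a log2 fold change of -1.18 ± 0.13 (edgeR adjusted p = 6.42e-05). In both genes the highest Tn tumour stood clearly below the lowest WT tumour. Prc1 (ENSMUSG00000038943, GRCm39 chromosome 7, 79944198 to 79966007, plus strand), which bundles microtubules of the central spindle, had 49.7, 56 and 63.6 CPM in Tn and 87.1, 94.9 and 114 CPM in WT tumours, at 57.5% of the WT level (log2 fold change -0.80 ± 0.09, edgeR adjusted p = 6.39e-05).

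Of the 4 kinesin genes of the spindle and midzone in this class, Kif23, Kif11 and Kif20a fell without overlap between the groups, and Kif4 did not pass. Kif23, a subunit of the centralspindlin complex that recruits Ect2, had 37.2, 54.9 and 71.3 CPM in Tn and 80.2, 87.3 and 94.1 CPM in WT tumours (log2 fold change -0.66 ± 0.12, edgeR adjusted p = 0.00140). For Kif11, the motor that pushes the spindle poles apart, the values were 51.5, 67 and 82.5 CPM in Tn and 87.4, 104 and 111 CPM in WT tumours (log2 fold change -0.61 ± 0.11, edgeR adjusted p = 0.00124). Kif20a, a midzone kinesin, had 41.1, 50.5 and 66.2 CPM in Tn and 67.3, 77.1 and 86.3 CPM in WT tumours (log2 fold change -0.59 ± 0.10, edgeR adjusted p = 0.000943). In these 3 genes Tn tumour 2 was the highest Tn tumour and still lay below every WT tumour. In the chromokinesin gene Kif4 the groups overlapped. Kif4, at -0.43 (95% interval -0.85 to -0.0025), and Nusap1, a microtubule-binding protein of the spindle, at -0.17 (-0.38 to 0.04), did not pass. Of the 8 spindle motor and cytokinesis genes, 6 fell, and in these 6 every Tn tumour lay below every WT tumour. Of all tested genes 17.4% fell, and 8.35% separated the groups in this way.

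**Figure D3:**
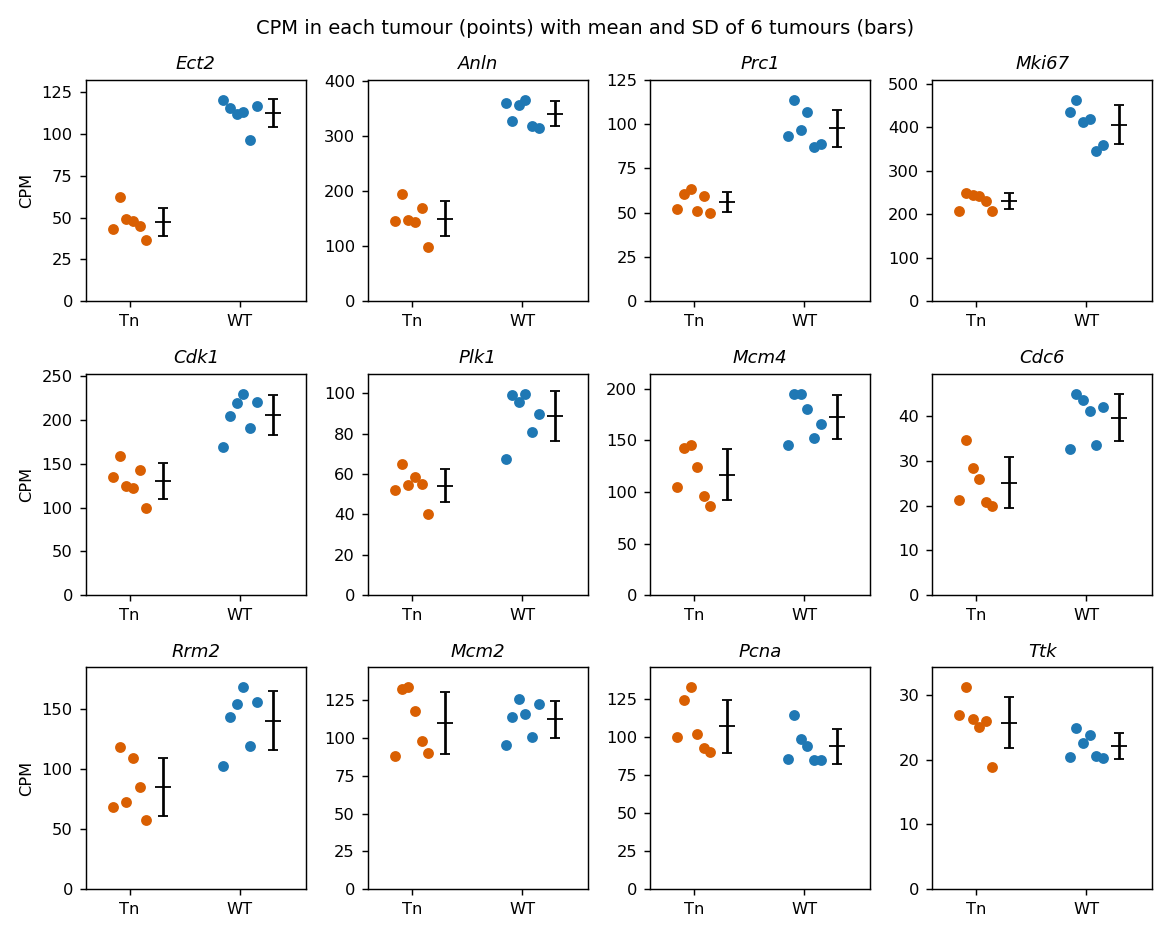
CPM of 12 of the genes in each tumour (points), with the mean and SD of the 6 tumours of a group (bars), Tn left of WT in each panel. Ect2, Anln, Prc1, Mki67, Cdk1 and Plk1 do not overlap between the groups, Mcm4, Cdc6 and Rrm2 overlap slightly, and Mcm2, Pcna and Ttk overlap widely or lie higher in Tn.

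Both markers of mitotic chromosomes fell. Mki67 (ENSMUSG00000031004, GRCm39 chromosome 7, 135291513 to 135318090, minus strand), whose product coats mitotic chromosomes, had 208, 237 and 249 CPM in Tn and 346, 415 and 463 CPM in WT tumours, with a log2 fold change of -0.82 ± 0.08 (edgeR adjusted p = 4.82e-05) and 56.8% of the WT level left. The groups were far apart. Top2a, the topoisomerase that untangles sister chromatids, had 453, 544 and 762 CPM in Tn and 694, 722 and 754 CPM in WT tumours. The fold change, -0.34 ± 0.10 on the log2 scale, passed (edgeR adjusted p = 0.0193), 5 of 6 Tn tumours lay below all WT tumours, and Tn tumour 2 lay above them all. Without the 3 libraries named above Top2a was at -0.25 and did not pass (edgeR adjusted p = 0.110). The difference between the fold changes of the 2 genes was not tested. Per kilobase of exon Top2a had the highest level of the 49 genes, at 63.2 ± 11.4 CPM in Tn and 80.1 ± 2.69 CPM in WT tumours (SD, n = 6 each).

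Cdk1 and the cyclins that drive entry into mitosis fell, cyclin B2 excepted. Cdk1, the mitotic kinase, had 99.1, 129.7 and 159.5 CPM in Tn and 169, 212 and 230.3 CPM in WT tumours (log2 fold change -0.66 ± 0.11, edgeR adjusted p = 0.000825). Ccna2, cyclin A2, had 69, 96.3 and 129 CPM in Tn and 138, 159.6 and 172 CPM in WT tumours (log2 fold change -0.71 ± 0.12, edgeR adjusted p = 0.00109). In both, no Tn tumour reached the lowest WT tumour. Ccnb1, cyclin B1, had 39.2, 57.9 and 72.4 CPM in Tn and 66.8, 79.8 and 82.1 CPM in WT tumours (log2 fold change -0.42 ± 0.12, edgeR adjusted p = 0.0151), and 5 of 6 Tn tumours lay below all WT tumours. The call was lost without the 3 libraries, at -0.29 (edgeR adjusted p = 0.0582). For Ccnb2, with 50.6, 78 and 96.1 CPM in Tn and 75.5, 85.9 and 97.7 CPM in WT tumours, the groups overlapped and the difference of -0.19 did not pass (95% interval -0.46 to 0.08).

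Among mitotic kinases, Plk1 and Tpx2 separated the groups and the chromosomal passengers did not. Plk1, a kinase of centrosome maturation and mitotic entry, had 40.3, 54.7 and 64.7 CPM in Tn and 67.5, 92.7 and 99.8 CPM in WT tumours (log2 fold change -0.71 ± 0.12, edgeR adjusted p = 0.000800). Tpx2, the spindle factor that activates Aurora A, had 69.8, 99.8 and 122 CPM in Tn and 129, 140.3 and 169.7 CPM in WT tumours (log2 fold change -0.54 ± 0.11, edgeR adjusted p = 0.00317). Tn and WT tumours did not overlap in these 2 genes. Aurkb, the kinase of the passenger complex, had 47.7, 51.1 and 64.1 CPM in Tn and 57.5, 61.7 and 66 CPM in WT tumours. Its change was small, at -0.23 ± 0.07 on the log2 scale (edgeR adjusted p = 0.0312), and no longer passed without any single one of Tn tumours 1, 3, 4, 5 and 6 and WT tumours 2, 3 and 4, with log2 fold changes of -0.22 to -0.19 and edgeR adjusted p of up to 0.0875, nor without the 3 libraries, at -0.15 (edgeR adjusted p = 0.219). Its partners Birc5 (survivin), at -0.20 (-0.51 to 0.11), and Cdca8 (borealin), at -0.18 (-0.39 to 0.03), did not pass, and neither did Aurka, at -0.30 (-0.55 to -0.05, 95% intervals). Aurka, the centrosomal Aurora A, had 32.3, 45.1 and 52.9 CPM in Tn and 44.3, 54.6 and 65.8 CPM in WT tumours, with overlap. Aurka passed when Tn tumour 2 was left out, at -0.35 (edgeR adjusted p = 0.0418), or WT tumour 1, at -0.34 (edgeR adjusted p = 0.0426).

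Kinetochore and checkpoint genes were split. Cenpe, the kinetochore motor that carries chromosomes to the spindle equator, had 58.5, 85.3 and 119.7 CPM in Tn and 123, 134 and 199 CPM in WT tumours (log2 fold change -0.72 ± 0.16, edgeR adjusted p = 0.00397), without overlap. The checkpoint kinase Bub1 had 29.99, 39.7 and 49.97 CPM in Tn and 47, 53.5 and 65.7 CPM in WT tumours (log2 fold change -0.43 ± 0.11, edgeR adjusted p = 0.0107). BubR1, encoded by Bub1b, had 49.5, 68.6 and 83.6 CPM in Tn and 79.7, 90.5 and 115 CPM in WT tumours (log2 fold change -0.45 ± 0.12, edgeR adjusted p = 0.00996). In both Bub genes only Tn tumour 2 reached into the WT range. Without the 3 libraries the Bub1 call was lost, at -0.34 (edgeR adjusted p = 0.0511).

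Ttk, the checkpoint kinase Mps1, was higher in most Tn tumours. It had 18.9, 26.2 and 31.2 CPM in Tn and 20.3, 21.6 and 25 CPM in WT tumours, so that 5 of 6 Tn tumours lay above every WT tumour while Tn tumour 6 lay below them all. With all tumours the difference of 0.22 did not pass (95% interval -0.01 to 0.45, edgeR adjusted p = 0.124). Without Tn tumour 6 it passed, at 0.30 (edgeR adjusted p = 0.0164), and also without the 3 libraries, at 0.31 (edgeR adjusted p = 0.0299). The microtubule-binding kinetochore subunits Nuf2, at 0.15 (-0.09 to 0.39), and Ndc80, at -0.04 (-0.22 to 0.14), and Cenpf, at -0.24 (-0.47 to 0.0019, 95% intervals), did not pass. Cenpf, a kinetochore protein of the outer corona, had 86.4, 118 and 152 CPM in Tn and 131, 136 and 155 CPM in WT tumours. It passed without Tn tumour 2, at -0.31 (edgeR adjusted p = 0.0258), and so did Kif4, at -0.56 (edgeR adjusted p = 0.0315).

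The anaphase-promoting complex was represented by its activator Cdc20 and its ubiquitin-conjugating enzyme Ube2c. Cdc20 had 58.6, 88.7 and 106 CPM in Tn and 92.2, 108 and 131 CPM in WT tumours, and 4 of 6 Tn tumours lay below all WT tumours. Ube2c had 65.3, 106 and 130.1 CPM in Tn and 98.6, 131 and 146 CPM in WT tumours, and the groups overlapped more. Neither passed with all tumours, at -0.32 (95% interval -0.61 to -0.04, edgeR adjusted p = 0.0739) and -0.30 (-0.62 to 0.01, edgeR adjusted p = 0.117).

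**Figure D4:**
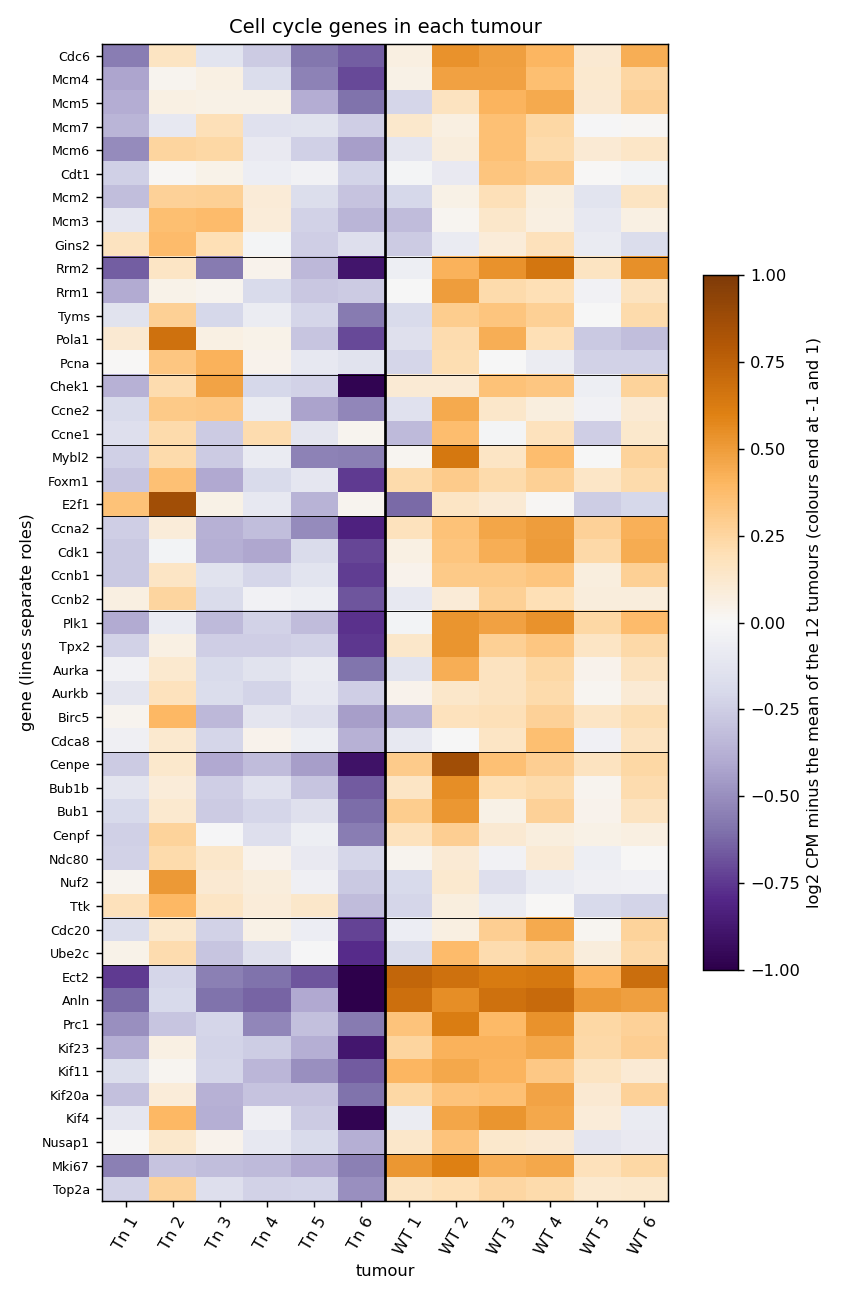
Log2 CPM of each gene (rows, by role) in each tumour (columns, 6 Tn left of 6 WT) minus the mean of the 12 tumours. Purple marks low and orange high values: Tn tumour 6 holds the lowest Tn value in 39 of 49 genes and Tn tumour 2 the highest in 40.

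Of the 3 transcription factors, the mitotic ones fell and E2f1 did not. Foxm1 had 45.9, 65.3 and 98.3 CPM in Tn and 85.1, 89.8 and 94.9 CPM in WT tumours (log2 fold change -0.42 ± 0.14, edgeR adjusted p = 0.0303). Tn tumour 2 held the highest Foxm1 value of all 12 tumours while the other 5 Tn tumours lay below every WT tumour. Mybl2 had 13.4, 16.6 and 23 CPM in Tn and 19.6, 22.7 and 30.7 CPM in WT tumours (log2 fold change -0.47 ± 0.15, edgeR adjusted p = 0.0249), and Tn tumour 2 alone reached into the WT range. E2f1, an activator of S phase genes, had 27.3, 36.1 and 64.1 CPM in Tn and 22.8, 32.9 and 39 CPM in WT tumours and did not pass, at 0.31 (95% interval -0.12 to 0.73, edgeR adjusted p = 0.234). The Foxm1 call was lost without any single one of Tn tumours 1, 3 and 4 and WT tumours 1, 2, 3 and 4 (log2 fold changes of -0.43 to -0.38, edgeR adjusted p up to 0.0676), and the Mybl2 call without Tn tumour 5 or 6 or WT tumour 2 or 4 (-0.45 to -0.37, edgeR adjusted p up to 0.0643). Without the 3 libraries Foxm1 was at -0.30 (edgeR adjusted p = 0.126) and Mybl2 at -0.42 (edgeR adjusted p = 0.100), and neither passed.

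Of the 17 replication genes, 6 fell (35.3%, against 17.4% of all genes) and 0 rose. The groups separated fully in 0 of the 17, where they did so in 17.2% of all tested genes, either direction. That count of 0 was not tested against this share. Rrm2, the regulated subunit of ribonucleotide reductase, which makes deoxynucleotides, had 57.9, 78.5 and 119 CPM in Tn and 103, 149 and 168 CPM in WT tumours (log2 fold change -0.72 ± 0.18, edgeR adjusted p = 0.00869). Its large partner Rrm1 had 106, 118 and 143 CPM in Tn and 135, 157 and 195 CPM in WT tumours (log2 fold change -0.35 ± 0.10, edgeR adjusted p = 0.0176). The loading factor Cdc6 had 19.8, 23.5 and 34.7 CPM in Tn and 32.7, 41.6 and 45 CPM in WT tumours (log2 fold change -0.66 ± 0.14, edgeR adjusted p = 0.00379). In Cdc6 only Tn tumour 2 entered the WT range, and in Rrm1 and Rrm2 2 Tn tumours did. Without the 3 libraries the Rrm1 call was lost, at -0.31 (edgeR adjusted p = 0.0950).

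The 6 subunits of the MCM helicase, which act as 1 ring, were at log2 fold changes of -0.56 to 0.07. Of these, 3 fell, where 17.4% of all tested genes fell. The differences between subunits were not tested. Mcm4 had 85.9, 115 and 146 CPM in Tn and 145, 173 and 195 CPM in WT tumours (log2 fold change -0.56 ± 0.14, edgeR adjusted p = 0.00658), and 5 of 6 Tn tumours lay below all WT tumours. Mcm5, with 93.5, 127 and 147 CPM in Tn and 122, 165 and 193 CPM in WT tumours, passed narrowly (-0.39 ± 0.14, edgeR adjusted p = 0.0441). So did Mcm7, with 112, 129.7 and 163 CPM in Tn and 142, 153 and 183 CPM in WT tumours (-0.26 ± 0.09, edgeR adjusted p = 0.0431). In Mcm7 only Tn tumour 3 reached into the WT range, and in Mcm5 3 Tn tumours did. Mcm6 (-0.24, 95% interval -0.54 to 0.06), Mcm2 (-0.03, -0.29 to 0.23) and Mcm3 (0.07, -0.22 to 0.35) did not pass. Mcm2 had 88.3, 108 and 134 CPM in Tn and 95.4, 115 and 126 CPM in WT tumours, so that its Tn values spanned the whole WT range. The Mcm5 call was lost without any single one of Tn tumours 1, 5 and 6 and WT tumours 2 to 6 (-0.41 to -0.32, edgeR adjusted p up to 0.0954), and the Mcm7 call without Tn tumour 1, 2, 4, 5 or 6 or WT tumour 1, 2, 3 or 4 (-0.27 to -0.21, edgeR adjusted p up to 0.0986). Neither passed without the 3 libraries, at -0.34 (edgeR adjusted p = 0.120) for Mcm5 and -0.24 (edgeR adjusted p = 0.140) for Mcm7.

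Levels of the MCM subunits per length, in CPM per kilobase of annotated exon, kept Mcm2 lowest in both groups. In Tn tumours the order was Mcm3 (45.7 ± 9.78), Mcm6 (42.5 ± 9.69), Mcm4 (32.5 ± 6.91), Mcm5 (31.3 ± 6.11), Mcm7 (29.7 ± 3.93) and Mcm2 (15.8 ± 2.99, mean ± SD, n = 6). In WT tumours it was Mcm6 (50.1 ± 5.42), Mcm4 (48.1 ± 5.93), Mcm3 (43.7 ± 4.77), Mcm5 (41.1 ± 6.52), Mcm7 (35.6 ± 3.59) and Mcm2 (16.2 ± 1.74, mean ± SD, n = 6). Neighbours in either order differed by less than the larger of their SDs, except Mcm6 and Mcm4 in Tn tumours and the step from Mcm7 to Mcm2 in both groups. The annotated length of Mcm2, 6956 bases, sums the exons of all its transcripts and is longer than that of the other subunits (3589 to 4666 bases), which lowers its value per kilobase.

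The remaining replication genes did not pass. Pcna, the sliding clamp of the polymerases, had 90.3, 101 and 133 CPM in Tn and 84.6, 89.9 and 115 CPM in WT tumours, with a log2 fold change of 0.19 (95% interval -0.05 to 0.43). Gins2, a subunit of the active helicase, was at 0.12 (-0.13 to 0.36), Pola1, the catalytic subunit of the primase-polymerase, at -0.0017 (-0.45 to 0.44), and Cdt1, the other loading factor, at -0.17 (-0.36 to 0.02). Tyms, thymidylate synthase, had 29, 38.1 and 52.1 CPM in Tn and 37.6, 51.1 and 54.1 CPM in WT tumours. It was at -0.30 (-0.58 to -0.02) and passed without Tn tumour 2, at -0.39 (edgeR adjusted p = 0.0229). The groups also overlapped in the cyclin E genes and in Chek1, the kinase of the replication checkpoint. Ccne1 had 8.20, 9.51 and 11.4 CPM in Tn and 7.82, 10.2 and 12.7 CPM in WT tumours, at -0.04 (-0.33 to 0.26). Ccne2 had 7.95, 10.5 and 14.3 CPM in Tn and 10.4, 12.2 and 15.7 CPM in WT tumours, at -0.17 (-0.52 to 0.18). Chek1 had 22.1, 37.1 and 59.9 CPM in Tn and 41.6, 49.2 and 55 CPM in WT tumours, at -0.30 (-0.72 to 0.11). Except for Tyms, these intervals span changes of both signs, so they do not show equal levels.

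Replication and mitosis were then set against each other within each tumour, as the mean log2 CPM over the genes of each class. For mitosis genes the level was 6.15, 6.48, 6.14, 6.16, 6.14 and 5.73 in Tn tumours 1 to 6, against 6.48, 6.73, 6.64, 6.69, 6.48 and 6.56 in WT tumours 1 to 6, a difference of -0.46 between the means. For replication genes it was 5.75, 6.23, 6.11, 5.97, 5.75 and 5.56 in Tn tumours, against 5.90, 6.24, 6.30, 6.26, 5.98 and 6.13 in WT tumours, a difference of -0.24. Mitosis levels were below all WT tumours in 5 of 6 Tn tumours, and Tn tumour 2 only just reached the lowest WT tumour. Replication levels overlapped in 3 of 6 Tn tumours. Since the genes were chosen, these levels are given without a test.

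The level of replication minus that of mitosis was -0.40, -0.25, -0.03, -0.19, -0.39 and -0.17 in Tn tumours 1 to 6, against -0.58, -0.49, -0.34, -0.43, -0.50 and -0.43 in WT tumours 1 to 6. It averaged -0.24 ± 0.14 in Tn and -0.46 ± 0.08 in WT tumours (log2, SD, n = 6 each), and 4 of 6 Tn tumours lay above every WT tumour. The size of this gap depended on which replication genes were used. Of the 9 Mcm, Rrm and Cdc6 genes 6 fell (66.7%), as did 17 of 29 mitosis genes (58.6%), against 17.4% of all genes. The level of these 9 genes minus that of mitosis averaged 0.59 ± 0.18 in Tn and 0.49 ± 0.10 in WT tumours. The difference was 0.10 with overlap between the groups, as 3 of 6 Tn tumours lay above every WT tumour and 1 below them all. As medians over the 17 replication and 29 mitosis genes in place of means, the difference between Tn and WT tumours was 0.39.

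**Figure D5:**
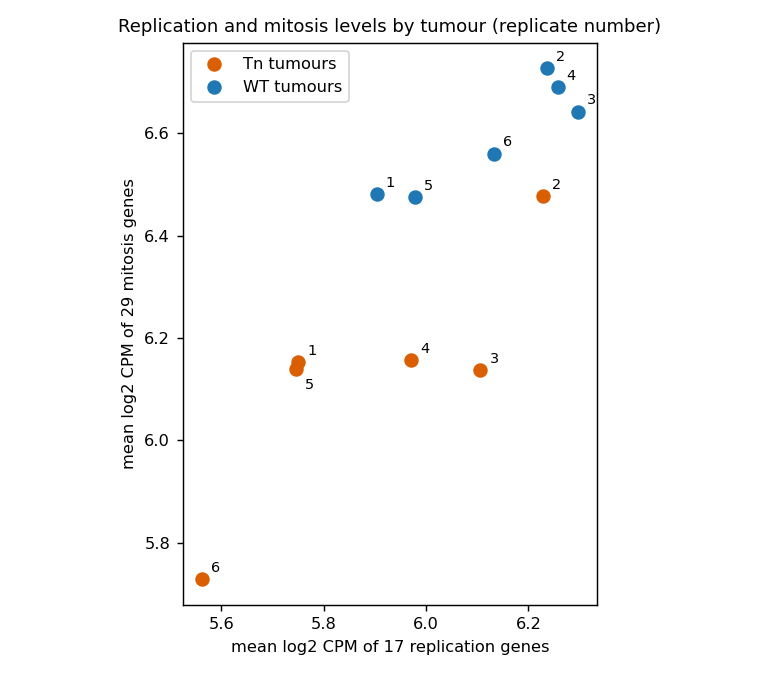
Mean log2 CPM of 17 replication genes (horizontal) and 29 mitosis genes (vertical) in each tumour, numbered by replicate. At a similar replication level Tn tumours lie lower than WT tumours on the mitosis axis, and Tn tumour 6 is lowest on both axes.

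Tumours of a group differed in the same way across many genes. Tn tumour 6 held the lowest value among Tn tumours in 39 of 49 genes and the lowest of all 12 tumours in 38. Tn tumour 2 held the highest Tn value in 40 of 49 and the highest of all 12 in 9. Among WT tumours, WT tumour 1 was lowest in 24 and WT tumour 5 in 19 genes, and WT tumour 2 was highest in 22. Leaving out Tn tumour 6 left 21 genes that fell, where 3134 of all tested genes fell. Leaving out Tn tumour 2 gave 28, where 2993 of all tested genes fell.

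Markers of other cells moved with the groups, and their counts stand beside the 17.4% of all tested genes that fell and the 19.5% that rose. The summed level of 8 fibroblast markers was 3210 to 4604 CPM in Tn and 7780 to 20217 CPM in WT tumours, and 7 of the 8 fell while 1 rose. Macrophage markers (5 of 8 rose) summed to 1206 to 3612 CPM in Tn and 802 to 1245 CPM in WT tumours, and T cell markers (9 of 9 rose) to 52.0 to 515 CPM in Tn and 8.71 to 25.8 CPM in WT tumours. Tumour epithelium markers, present in all tumours, summed to 2123 to 3707 CPM in Tn and 2280 to 4945 CPM in WT tumours. Of these 9 markers 3 fell and 0 rose, and their median log2 fold change was -0.88, so the overlapping sums do not show equal levels. Endothelial markers summed to 211 to 409 CPM in Tn and 308 to 549 CPM in WT tumours (6 of 8 fell). Tn tumour 6, lowest in most cell cycle genes, held 3178 CPM of keratinocyte markers, with the other Tn tumours at 165 CPM or less and 52.4 to 912 CPM in WT tumours. Tn tumour 4 held 736 CPM of B cell markers, with the other Tn tumours at 13.2 CPM or less and 1.75 to 2.84 CPM in WT tumours (5 of 6 tested rose). Genes listed as markers of germinal centre B cells, a dividing cell type, summed to 72.8 to 177 CPM in Tn and 75.1 to 82.0 CPM in WT tumours. Of these, 2 of 3 tested rose, and the sum was again highest in Tn tumour 4, with the other Tn tumours at 94.3 CPM or less. In WT tumours the B cell markers summed to 2.84 CPM or less, so the germinal centre sum cannot be read as a level of these cells. Without Tn tumour 4, 22 of the 49 cell cycle genes fell and 0 rose, while of all tested genes 3283 fell and 3778 rose. Adipocyte markers summed to 30.8 to 311 CPM in Tn and 21.7 to 1261 CPM in WT tumours, highest in WT tumour 6 (1 of 6 fell). Of the neutrophil, skeletal muscle and erythroid markers tested, 0 passed. No marker of these lists was at 0 in all tumours of a group, and the part of these cells in the cell cycle differences was not tested.

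Gene length moved with the fold change as well. Among 10431 genes above 3 log2 CPM, the median log2 fold change was 0.19 in those of 67 to 2604 bases of exon and -0.09 in those of 7977 bases and more. In each of 5 equal bins of length the median of the cell cycle genes was below that of all genes, at -0.30 for the 6 shortest and -0.54 for the 8 longest. With each library adjusted for gene length, a setting chosen after seeing the data, 29 of the 49 genes fell, against 20.2% of all genes. Of the 25 genes that fell before, 24 were among them. Ect2 was then at -1.27, Anln at -1.12 and Mki67 at -0.74. Rrm1 no longer passed, at -0.26 (edgeR adjusted p = 0.0656).

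Genes of the pathway outside the 49 were counted in lists by function. Of 66 further mitosis genes, 31 fell and 1 rose (47.0% fell, against 17.4% of all genes, median log2 fold change -0.28). Hmmr, a spindle assembly factor, had 32.8, 40.8 and 46.3 CPM in Tn and 67.1, 70.6 and 77.2 CPM in WT tumours (log2 fold change -0.81 ± 0.08, edgeR adjusted p = 3.90e-05). Zwilch, of the kinetochore (-0.69), the condensin subunit Ncapd3 (-0.59) and the spindle pole protein Aspm (-0.68) fell too, and in these 4 genes the groups did not overlap. Of 49 further replication genes, 17 fell and 3 rose (34.7% fell, against 17.4% of all genes, median -0.11). The fork protein Timeless (-0.55) and the maintenance methyltransferase Dnmt1 (-0.61) fell. Rpa3, a subunit of the single-strand binding complex, rose, with 36.4, 44.8 and 48.6 CPM in Tn and 19.5, 21.7 and 24.9 CPM in WT tumours (log2 fold change 0.99 ± 0.09, edgeR adjusted p = 1.88e-05), and so did the dUTPase gene Dut (0.64). Both are short genes, at 1136 and 2410 bases, and genes of 67 to 2604 bases above had a median log2 fold change of 0.19. The part of gene length in these rises was not tested.

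Genes of the S and G2 checkpoints and of homologous repair were also mixed. Of 31, 10 fell and 3 rose (32.3% fell, median -0.17), where 17.4% of all tested genes fell and 19.5% rose. Chek2 (-0.46), Blm, a helicase (-0.52), and the checkpoint kinase Atr (-0.34) fell, and Rad9a, of the checkpoint clamp, rose (0.59). Of 14 G1 cyclins, kinases and growth-linked transcription factors, 4 fell and 1 rose (28.6% fell, against 17.4% of all genes, median -0.07). Cdk2, the S phase kinase, had 40.7, 42.5 and 44.8 CPM in Tn and 49.4, 55.2 and 57.2 CPM in WT tumours (log2 fold change -0.35 ± 0.05, edgeR adjusted p = 0.000469), a small drop without overlap. Cyclin D1, Ccnd1, fell (-0.39) and cyclin D3, Ccnd3, rose (0.53), while the phosphatase gene Cdc25a fell (-0.32). Among 29 brakes of the cell cycle, 11 fell and 5 rose (37.9% fell, against 17.4% of all genes, median -0.08). The repressor E2f7 (-0.87), E2f6 (-0.48) and the DREAM subunit Lin54 (-0.48) fell, and the CDK inhibitor Cdkn2c rose (0.45).

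The 49 genes were spread over the genome. Chromosome 2 held 9, of which 4 fell, and chromosomes 7 and 9 held 5 each, of which 4 and 2 fell. Chromosomes 1 and 11 held 4 each, of which 0 and 3 fell, and every other chromosome held 3 or fewer. Of all tested genes 17.4% fell, but this share was not taken by chromosome, so the counts describe placement only. Some values are less certain because their exons overlap those of another gene and the counting did not use strand. Another gene's exons covered 67.3% of the exon bases of Gins2, 29.3% of Kif20a, 22.8% of Ube2c, 20.8% of Pcna, and 11.1% to 17.4% of Ccne2, Kif4, Mcm7, Ccna2 and Prc1.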

How the data were processed

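RNA-seq of 12 tumours was used as read counts per gene. Per the file headers and the submitters' processing notes, the tools were fastp 0.23 for trimming, STAR 2.7.11a for alignment (GRCm39) and featureCounts of Subread 2.1.1 for counting over Ensembl exons, without strand and leaving out reads shared by overlapping genes. In the deposited counts, 66.4% to 72.5% of values up to 20 were even, so most read pairs added 2 counts. This bears on totals and on the noise of counts, and not on ratios.

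Gene identifiers were paired with symbols through GENCODE mouse release 39 (56630 of 57186). Counts were scaled by TMM, filtered by group with filterByExpr and tested with the robust quasi-likelihood test of edgeR 4.0.16 in R 4.3.3, 6 Tn against 6 WT tumours, with Benjamini-Hochberg adjustment over 19255 genes. Fold changes are log2, Tn over WT, with 95% intervals. Levels of a class are means of log2 CPM with a prior count of 2. In data simulated for this comparison, with 200 of 19255 genes changed, 40% of 1.5-fold and 64% of 2-fold changes were recovered. In the tumours 7094 of 19255 genes passed, and the Benjamini-Hochberg cutoff is stricter where fewer genes change. These shares therefore do not give the power for the cell cycle genes in the tumours. Pairs of tumours within a group differed by at least 41.4 times the sampling noise (chi-square per degree of freedom), so no library was counted as a duplicate. Nothing in the labels says how the tumours of a group relate beyond being separate samples, so p-values measure the spread between these samples. Library numbers are lower in every Tn than in every WT tumour, so their order and the genotype cannot be told apart.

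Named are C1galt1c1, all 49 genes, and the 4 genes with the smallest p in each further list, and any further gene is marked as picked later. The genes, lists and tests were chosen with earlier results of these data known. The alternatives comprised other tools (DESeq2 1.42.0, limma 3.58.1 with voom), upper-quartile or RLE scaling, other filters, a threshold of 0.01, a replicate block, a length adjustment, and leaving out tumours. Deposited gene lengths were used for levels per kilobase.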

Additional observations from a re-analysis of the deposited data

Results flagged for a closer look

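Of 146 groups of 6 tumours, taken for each gene or class level in Tn and in WT, 10 held a tumour whose gap to its nearest neighbour exceeded the 95% critical share of the range for 6 samples. Chance flags about 1 in 20 groups. Aurkb was 64.1 CPM in Tn tumour 2, against 52.8 CPM in the next Tn tumour. C1galt1c1 was 12.9 CPM in Tn tumour 1, against 11.2 CPM in the next, and Ccnd1 was 1089.6 CPM in Tn tumour 2, against 854 CPM in the next. Among WT tumours, WT tumour 2 stood high in Bub1b (115 CPM, next 91.5), Cenpe (199 CPM, next 139.9), Cdc25a (52.9 CPM, next 44.1) and Blm (30.3 CPM, next 24.7). WT tumour 1 stood low in Birc5 (59.5 CPM, next 85.1) and high in Atr (38.2 CPM, next 33.6). Ect2 was 96.5 CPM in WT tumour 5, against 112 CPM in the next WT tumour, and this lowest WT value still lay above every Tn tumour. Causes were not tested.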

How the results depend on the processing

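Of the 25 genes that fell, 16 fell in every alternative that was run, the threshold of 0.01 included: Mcm4, Cdc6, Rrm2, Cdk1, Ccna2, Plk1, Tpx2, Bub1b, Cenpe, Kif11, Kif20a, Kif23, Prc1, Ect2, Anln and Mki67. With 1 tumour left out at a time, 20 to 28 of the 49 genes fell and 0 to 1 rose (Ttk, without Tn tumour 6), as did 4 to 6 replication genes and 16 to 20 mitosis genes (0 to 1 rose). All genes that fell numbered 2833 to 3283, those that rose 3210 to 3778, and further pathway genes 57 to 78 that fell and 10 to 16 that rose. The class difference, taken with all 17 replication genes, stayed between 0.18 and 0.26. At a threshold of 0.01, 16 of the 49 genes fell, 3 of replication, with 41 further pathway genes, and of all genes 1916 fell and 2109 rose. Without Tn tumours 4 and 6 and WT tumour 6, 16 fell, 3 of replication, and 1 mitosis gene rose. As medians over the genes, the class difference was 0.39.

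Same-numbered tumours did not deviate together (correlations -0.13 to 0.16, and 1 of 6 Tn tumours correlated best with its own number), so the numbers were not taken to pair samples. With the replicate as a block, 24 of the 25 still fell, Aurkb was lost (-0.23, edgeR adjusted p = 0.0562) and Kif4 gained (-0.46, edgeR adjusted p = 0.0388). Genes near 0 that never passed changed sign: Mcm2 (0.052 without the 3 tumours, -0.090 to 0.029 with 1 left out), Mcm3 (-0.012 adjusted for length, -0.0062 to 0.14 with 1 left out), Pola1 (0.0085 without a filter, 0.093 without the 3 tumours, 0.055 adjusted for length, -0.16 to 0.11 with 1 left out), Ndc80 (0.0036 without the 3 tumours, -0.084 to 0.0013 with 1 left out) and Ccne1 (-0.086 to 0.051 with 1 left out). Without a filter Mcm5, Mcm7, Foxm1 and Aurkb did not pass, with more genes tested. The causes of the other changes were not tested. The lowest count of the 49 genes in a tumour was 950, and the effect of depth was not tested.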

Other observations

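Several brakes of the cell cycle were lower in Tn tumours as well, and these genes were chosen after their values were seen. Of the 29 brakes counted above, 11 fell and 5 rose, where 17.4% of all tested genes fell and 19.5% rose. Their log2 fold changes ran from -1.10 to 1.07, with a median of -0.08. E2f8, a repressor of the E2F family related to E2f7, had 28.5, 47 and 78.7 CPM as lowest, median and highest value in Tn and 79.8, 103 and 162 CPM in WT tumours, with a log2 fold change of -1.10 ± 0.22 (edgeR adjusted p = 0.00260). Every Tn tumour lay below every WT tumour. Wee1, the kinase that holds Cdk1 inactive, had 28.9, 33.8 and 39.5 CPM in Tn and 41, 45.5 and 49.6 CPM in WT tumours (-0.42 ± 0.08, edgeR adjusted p = 0.00190), also without overlap. Of the CDK inhibitors, Cdkn1c (-0.94, edgeR adjusted p = 0.00246), Cdkn2b (-0.82, edgeR adjusted p = 0.0246) and Cdkn1a (-0.44, edgeR adjusted p = 0.0365) fell. Rb1, the retinoblastoma protein that restrains E2F factors, rose, with 24.1, 30.04 and 33.2 CPM in Tn and 17.8, 21.2 and 22.3 CPM in WT tumours (0.48 ± 0.09, edgeR adjusted p = 0.00160), and every Tn tumour lay above every WT tumour.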
